A study of Homo sapiens with 2 samples.

Results

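The enzyme names followed here were ASNS, PHGDH, CBS, SHMT2 and MTHFD2, in RNA of the human lung cancer line 95D after nutrient deprivation. They were found as the rows that carry 1 of these gene names and a number in place of a missing mark. They make up 5 of the 9253 names with a value. Their names stand on 25 of the 91835 transcript rows of each file, and 18 of the 25 carry a value, out of 18663 rows with a value in all. All 5 names had a value and passed the minimum of 1 in either library. The study is described as an immunoprecipitation of RNA with an antibody to ALKBH5, an RNA demethylase, set against input RNA. The labels of the samples used here name total RNA and no pull-down, so binding to ALKBH5 is not analysed. The glutamine-deficient sample was wild-type 95D cells kept for 48 h in DMEM without glutamine. The glucose-deficient sample was wild-type 95D cells kept for 48 h in DMEM without glucose. Both were first grown for 24 h in complete medium, and both deprivation media held 10% dialyzed serum. Cells in complete medium are not analysed here, so neither library has an unstarved control. The groups follow each sample's title and treatment label; the description of the glutamine-deficient sample points to the glucose column of a joint table, which was not used. Each condition is 1 library, and no difference has a replicate check or a p-value.

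Asparagine synthetase, ASNS, builds asparagine from aspartate and takes the nitrogen from glutamine. PHGDH turns a glycolytic intermediate into the precursor of serine, and so commits glucose carbon to serine synthesis. SHMT2 splits serine in mitochondria into glycine and a one-carbon unit carried on folate, and MTHFD2 oxidises that unit for later use in purine synthesis. CBS joins serine to homocysteine at the entry of transsulfuration, the route to cysteine. ASNS, PHGDH, SHMT2 and MTHFD2 are known targets of ATF4, the transcription factor that is translated when amino acids run short.

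Both libraries were checked before the enzymes were read. Recovered reads, worked out from the equal steps between low values, came to 1442570 in the glutamine-deficient and 42827 in the glucose-deficient library. Names above 0 numbered 9211 in the glutamine-deficient library, or 99.5% of names, and 393 in the glucose-deficient library, or 4.25%. ACTB and GAPDH, genes that nearly every cell uses, stood at deposited values of 798 and 810.0 in the glutamine-deficient library and were listed at 0 in the glucose-deficient library. A 0 in the glucose-deficient library is therefore given as listed at 0 and not as absence, and no fold against it is read as a size. The markers of lung and epithelial cells had 5 of 10 names with a value, 5 above 0 in the glutamine-deficient and 2 in the glucose-deficient library, with summed deposited values of 289 in the glutamine-deficient and 360 in the glucose-deficient library. EPCAM, CDH1, SFTPB and SFTPC had no value, and NKX2-1 is not analysed here. The mesenchymal markers had 4 of 5 names with a value, 4 above 0 in the glutamine-deficient and 2 in the glucose-deficient library, with sums of 1390 in the glutamine-deficient and 482 in the glucose-deficient library. No endothelial, blood or fibroblast marker had a value. The rows carry no transcript identifier and stand in a column headed as names of long non-coding RNA genes. A value under an enzyme's name is thus that of the listed transcripts and may or may not include its messenger RNA. In bulk RNA, fewer cells holding a transcript and less of it per cell cannot be told apart.

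The genes lie apart in the genome (GRCh38.p14). ASNS is at chr7:97851677-97928441, PHGDH at chr1:119711934-119744215, CBS at chr21:43053191-43076873, SHMT2 at chr12:57229711-57234935 and MTHFD2 at chr2:74198615-74217565. Promoter windows in RefSeq cover 4 of the 5 names, with 2 windows for ASNS and 3 for CBS. SHMT2 had no entry. The C/EBP-ATF response element is the site through which ATF4 is known to act on ASNS, and it is the reason for showing these sequences. Its core was searched as TGATGNAA on both strands of the 300 bases around each start, and the CCAAT box, a general promoter element, as CCAAT on both strands. The motifs share no bases in these windows. TGATGNAA was found in 1 of the 7 windows of these enzymes, 1 of the ASNS windows, and in 3.62% of all 35116 windows. CCAAT was found in 4 of the 7 windows and in 34.6% of all. The 250 bases before the start are given for 3 windows, 5′ to 3′ on the strand of the gene, with each match in capitals. They are chr7:97872409-97872658 on the minus strand for ASNS, chr1:119711684-119711933 on the plus strand for PHGDH and chr2:74198365-74198614 on the plus strand for MTHFD2.
ASNS: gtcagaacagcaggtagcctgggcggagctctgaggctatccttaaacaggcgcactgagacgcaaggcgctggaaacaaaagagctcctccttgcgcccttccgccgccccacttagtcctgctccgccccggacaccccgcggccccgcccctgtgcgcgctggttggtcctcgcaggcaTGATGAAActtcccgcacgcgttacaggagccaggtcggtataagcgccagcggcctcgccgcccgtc
PHGDH: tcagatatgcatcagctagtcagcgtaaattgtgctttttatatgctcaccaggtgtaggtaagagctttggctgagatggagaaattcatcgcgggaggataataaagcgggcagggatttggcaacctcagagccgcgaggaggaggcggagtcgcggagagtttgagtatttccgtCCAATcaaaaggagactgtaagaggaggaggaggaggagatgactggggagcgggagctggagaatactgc
MTHFD2: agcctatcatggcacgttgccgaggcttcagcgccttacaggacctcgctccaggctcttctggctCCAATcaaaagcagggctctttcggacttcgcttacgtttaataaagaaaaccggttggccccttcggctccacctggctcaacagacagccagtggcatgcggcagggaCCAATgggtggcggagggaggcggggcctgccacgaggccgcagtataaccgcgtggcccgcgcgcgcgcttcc
In ASNS the capitals mark TGATGNAA, whose first base lies 68 bases before the start. In PHGDH they mark a CCAAT box 71 bases before the start, and in MTHFD2 a pair of CCAAT boxes at 184 and 74 bases. A match is a stretch of letters, and the lack of one says nothing about the factor.

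The 5 enzymes split by library. ASNS, PHGDH and CBS were above 0 in both libraries. SHMT2 and MTHFD2 were above 0 in the glutamine-deficient library and listed at 0 in the glucose-deficient library. Thus 5 of 5 were above 0 in the glutamine-deficient library, where 99.5% of all names were, and 3 of 5 in the glucose-deficient library, where 4.25% of all names were. The values below are deposited values on the authors' unstated scale, summed over the rows of a name. They are not divided by length, so levels are compared between libraries and not between genes.

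**Figure D1:**
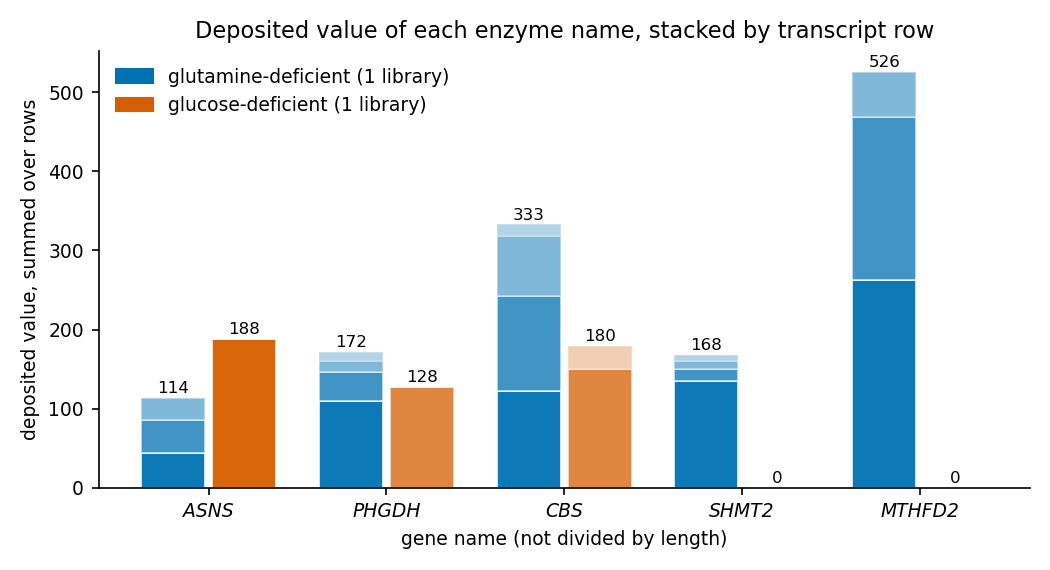
Deposited value of each enzyme name (vertical axis, linear, from 0), with each bar stacked from its transcript rows and the number on top giving the sum. Blue is the glutamine-deficient and orange the glucose-deficient library, 1 library each; ASNS is taller in orange, PHGDH and CBS are taller in blue, and SHMT2 and MTHFD2 have no orange bar.

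ASNS stood at 114 in the glutamine-deficient and 188 in the glucose-deficient library. It was the 1 enzyme of the 5 with the higher deposited value in the glucose-deficient library. This rested on 144 recovered reads in the glutamine-deficient and 149 in the glucose-deficient library. Its difference on the log2(value + 1) scale, glutamine-deficient minus glucose-deficient, was -0.72. PHGDH stood at 172 in the glutamine-deficient and 128 in the glucose-deficient library, from 217 reads in the glutamine-deficient and 101 in the glucose-deficient library, a log2 difference of 0.42. CBS stood at 333 in the glutamine-deficient and 180 in the glucose-deficient library, from 421 reads in the glutamine-deficient and 142 in the glucose-deficient library, a log2 difference of 0.89. None of these 3 differences reached 2-fold in the deposited values. Of the 351 names above 0 in both libraries, 42.2% were 2-fold or more higher in the glutamine-deficient and 25.4% in the glucose-deficient library. The deposited value was higher in the glucose-deficient library for 1 of the 3 enzymes and for 39.6% of the 351 names. SHMT2 stood at 168 in the glutamine-deficient library, from 212 reads, and was listed at 0 in the glucose-deficient library. MTHFD2 stood at 526 in the glutamine-deficient library, from 665 reads, and was listed at 0 in the glucose-deficient library. The last pair pass 2-fold only through the pseudocount of 1. Their log2 differences are thus not read as a size and appear only among the recalculated values at the end. Of the 9253 names, 97.4% pass 2-fold toward the glutamine-deficient library, nearly all of them with a listed 0 in the other, and nothing is read from that share. Toward the glucose-deficient library 0 of 5 enzymes passed 2-fold, against 1.42% of all names. The median log2 difference of the 3 enzymes seen in both libraries, which is that of PHGDH, was 0.42, against 0.61 for the 351 names.

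The direction for PHGDH and CBS rests on the deposited scale, and so does the size for ASNS. ASNS had nearly equal recovered reads, 144 in the glutamine-deficient and 149 in the glucose-deficient library. The step between low values was 1.60-fold larger in the glucose-deficient library. The sums of the libraries differed 21.1-fold, and rescaling each library to 1000000 shifts a well-measured name by 4.40 on the log2 scale. After rescaling the log2 differences were -5.11 for ASNS, -3.96 for PHGDH and -3.50 for CBS, all higher in the glucose-deficient library. On that scale 3 of 5 enzymes were 2-fold or more higher in the glucose-deficient library, against 3.75% of all names, while 96% of all names passed 2-fold the other way, again nearly all with a listed 0. Of the 351 names above 0 in both libraries, 86.9% were likewise 2-fold or more higher in the glucose-deficient library after rescaling. Their median log2 difference after rescaling was -3.77. ASNS and PHGDH lay below the median of the 351 names on both scales, and CBS lay above it on both. ASNS had 28.2% of the 351 names below it as deposited and 27.6% after rescaling. PHGDH had 45.6% of them below it as deposited and 45% after rescaling, and CBS had 55.6% below it as deposited and 55% after rescaling. Rescaling shifts well-measured names nearly alike, so their order is all but fixed in advance and the rescaled percents are no further check. Each of these enzymes lay within the middle part of the names seen in both libraries.

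**Figure D2:**
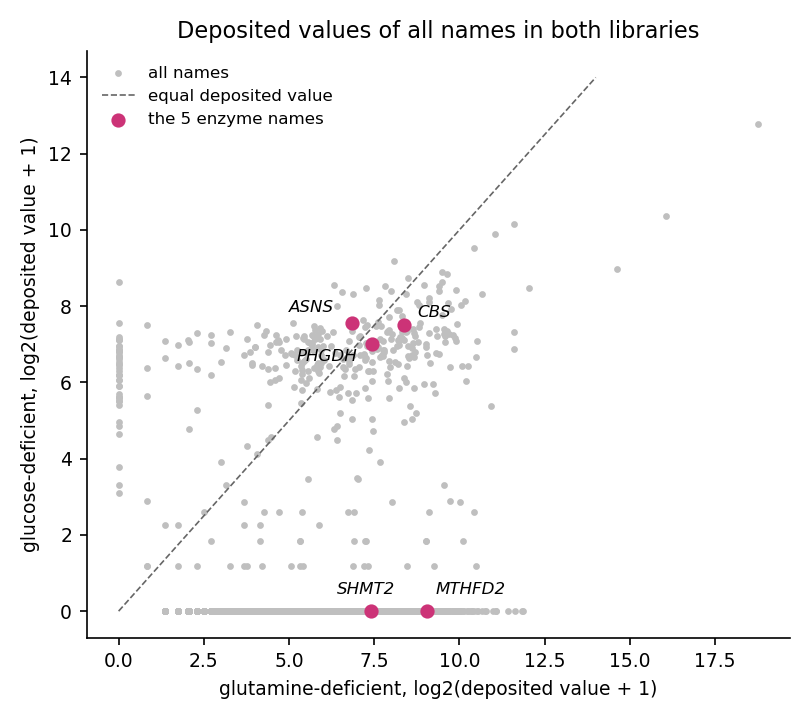
Every name (grey) by its deposited value in the glutamine-deficient (horizontal) and the glucose-deficient library (vertical), both as log2(value + 1), with the 5 enzyme names in pink and a dashed line of equal value. ASNS lies above the line, PHGDH and CBS lie under it inside the cloud of names seen in both libraries, and SHMT2 and MTHFD2 lie on the row of names listed at 0 in the glucose-deficient library.

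As a share of its own library, ASNS held 99.8 reads per 1000000 (95% Wilson interval 84.8 to 118) in the glutamine-deficient and 3479 (2964 to 4083) in the glucose-deficient library. PHGDH held 150.4 (132 to 172) in the glutamine-deficient and 2358 (1941 to 2864) in the glucose-deficient library. CBS held 292 (265 to 321) in the glutamine-deficient and 3316 (2814 to 3906) in the glucose-deficient library. All 3 took a larger share of the glucose-deficient library. SHMT2 held 147 (128 to 168) and MTHFD2 461 (427 to 497) in the glutamine-deficient library. Together the enzymes took 0.115% of reads (0.110 to 0.121%) in the glutamine-deficient and 0.915% (0.829 to 1.01%) in the glucose-deficient library. The reads were spread over 9211 names in the glutamine-deficient and 393 in the glucose-deficient library, so these shares cannot be read as a change in the cells. The intervals cover at most counting error and take each read as independent. No molecular identifiers mark which reads came from 1 molecule, so the intervals may be too narrow even for that.

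The make-up of the reads within the 5 enzymes does not depend on the scale of either library. ASNS supplied 8.68% of them (95% Wilson interval 7.42 to 10.1%) in the glutamine-deficient and 38.0% (33.3 to 42.9%) in the glucose-deficient library. PHGDH supplied 13.1% (11.5 to 14.8%) in the glutamine-deficient and 25.8% (21.7 to 30.3%) in the glucose-deficient library. CBS supplied 25.4% (23.3 to 27.5%) in the glutamine-deficient and 36.2% (31.6 to 41.1%) in the glucose-deficient library. SHMT2 supplied 12.8% (11.3 to 14.5%) and MTHFD2 40.1% (37.8 to 42.5%) in the glutamine-deficient library, and neither had a read in the other. Because the 5 shares add up to the whole, the 0 of SHMT2 and MTHFD2 by itself raises the shares of the other 3 in the glucose-deficient library. Among the reads of ASNS, PHGDH and CBS alone, 782 in the glutamine-deficient and 392 in the glucose-deficient library, ASNS supplied 18.4% (15.9 to 21.3%) in the glutamine-deficient and 38.0% (33.3 to 42.9%) in the glucose-deficient library. PHGDH supplied 27.7% (24.7 to 31.0%) in the glutamine-deficient and 25.8% (21.7 to 30.3%) in the glucose-deficient library. CBS supplied 53.8% (50.3 to 57.3%) in the glutamine-deficient and 36.2% (31.6 to 41.1%) in the glucose-deficient library. The larger share in the glucose-deficient library was thus kept by ASNS, while CBS turned round and the intervals of PHGDH overlapped. Single rows of these 3 names listed at 0 enter these shares too. The PHGDH row with 139 of its 217 reads in the glutamine-deficient library was listed at 0 in the other. Shares over only the rows seen in both libraries were not calculated. The intervals given for the shares cover at most counting error in 1 library each, with reads taken as independent, and give no test between the conditions.

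**Figure D3:**
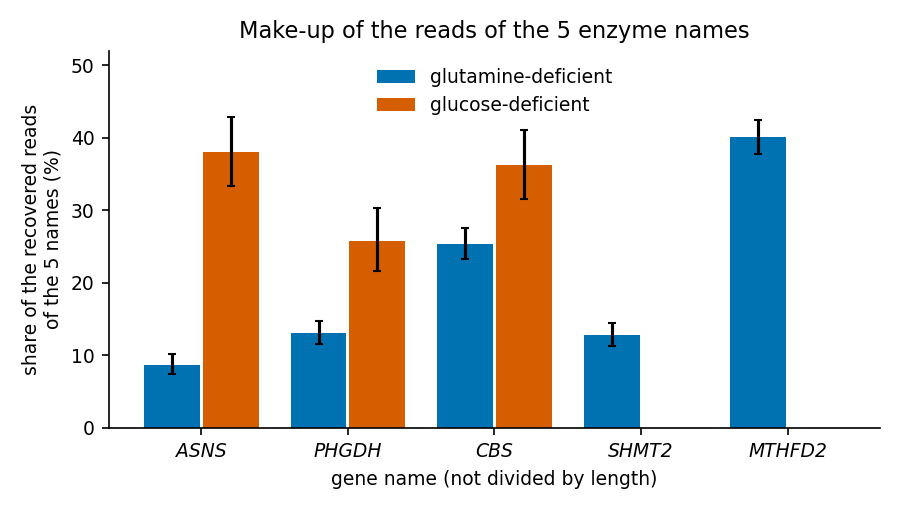
Share of the recovered reads of the 5 enzyme names that each name supplied, in percent, with 95% Wilson intervals for counting error as black bars. In the glutamine-deficient library (blue) MTHFD2 supplied 40.1% and ASNS 8.68%, and in the glucose-deficient library (orange) ASNS supplied 38.0% and SHMT2 and MTHFD2 none.

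The single transcript rows differed in part from the sums. In the glutamine-deficient library all 18 rows were above 0, at values of 7.89 to 263. In the glucose-deficient library 4 of the 18 were, at 29.1 to 188, against 2.54% of all rows. The 4 rows were 1 of ASNS, 1 of PHGDH and 2 of CBS. Each of the 4 had a higher deposited value in the glucose-deficient library, as did 56.8% of the 375 rows above 0 in both. Rescaling raises the glucose-deficient library against the other, so each of the 4 stayed higher there by construction.

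The 3 ASNS rows were at 43.5, 42.7 and 27.7 in the glutamine-deficient library and at 188, 0 and 0 in the glucose-deficient library, in the same row order. The first row thus held 38.2% of the ASNS reads (95% exact binomial interval 30.2 to 46.7%) in the glutamine-deficient library and 100% (97.6 to 100%) in the glucose-deficient library. Its log2(value + 1) difference was -2.09, further from 0 than that of the sum, because the other rows add 70.4 in the glutamine-deficient library alone.

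The 4 PHGDH rows with a value were at 110, 36.4, 14.2 and 11.1 in the glutamine-deficient library. In the glucose-deficient library the second of these was at 128 and the others at 0. That row held 21.2% of the PHGDH reads (16.0 to 27.2%) in the glutamine-deficient library and 100% (96.4 to 100%) in the glucose-deficient library, and its log2 difference was -1.78. The row with most PHGDH reads in the glutamine-deficient library, 64.1% (57.3 to 70.4%), had none in the glucose-deficient library. PHGDH was thus higher in the glutamine-deficient library by its sum and higher in the glucose-deficient library by the 1 row seen in both.

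The 4 CBS rows with a value were at 122, 120, 76.7 and 14.2 in the glutamine-deficient library and at 0, 150, 0 and 29.1 in the glucose-deficient library. The second row held 36.1% of the CBS reads (31.5 to 40.9%) in the glutamine-deficient and 83.8% (76.7 to 89.4%) in the glucose-deficient library. The fourth held 4.28% (2.55 to 6.67%) in the glutamine-deficient and 16.2% (10.6 to 23.3%) in the glucose-deficient library. Their log2 differences were -0.32 and -0.98. CBS was the 1 enzyme with more than 1 row above 0 in the glucose-deficient library, and like PHGDH its rows seen in both libraries ran against its sum.

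The 4 SHMT2 rows were at 135, 15.0, 9.47 and 7.89 in the glutamine-deficient library, so that 1 row held 80.7% of the reads (74.7 to 85.7%). The 3 MTHFD2 rows were at 263, 206 and 57.7, with 49.9% of the reads (46.1 to 53.8%) in the first. All 7 rows of both enzymes were listed at 0 in the glucose-deficient library. MTHFD2 reads were spread over its rows more evenly than SHMT2 reads.

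A single row above 0 in the glucose-deficient library was the common form among other names too. Of the 276 names above 0 in both libraries with at least 2 rows with a value, 230 had 1 such row, or 83.3%. Of the 90 such names with 3 or 4 rows, as these enzymes have, it was 87.8%. The row with most reads in the glucose-deficient library was also the largest in the glutamine-deficient library for 39.5% of the 276 names. Among the 90 names with 3 or 4 rows this was 46.7%. The same row led in both libraries for ASNS, by 55 against 54 reads in the glutamine-deficient library, and not for PHGDH or CBS.

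**Figure D4:**
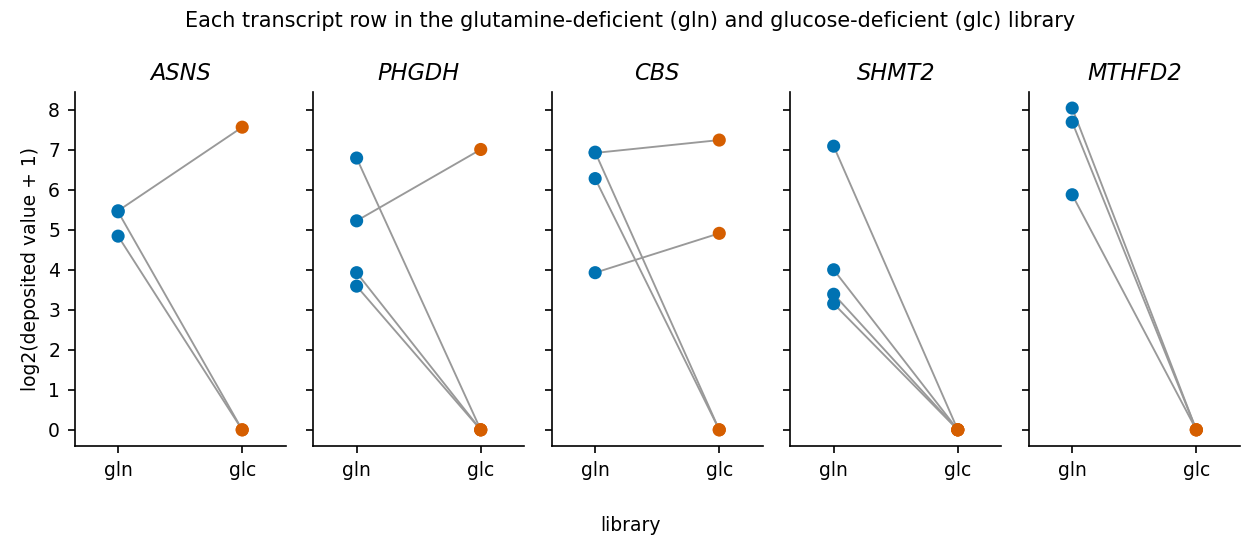
Each transcript row with a value, as log2(deposited value + 1), in the glutamine-deficient (gln, blue) and the glucose-deficient library (glc, orange), with a line joining the same row. The 1 ASNS row, 1 PHGDH row and 2 CBS rows seen in both libraries slope upward to the glucose-deficient library, and the other 14 rows drop to 0 there.

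From 10 upward, the share of names seen in the glucose-deficient library climbed with the level in the other. Under 10 it was 2.80% of 2645 names (95% Wilson interval 2.23 to 3.50%), which include 42 names at 0 in the glutamine-deficient library, all above 0 in the glucose-deficient library. Without these it was 1.23% of 2603. Of names at 10 to under 50 in the glutamine-deficient library, 1.98% were above 0 in the glucose-deficient library. Of the 822 names at 100 to under 200, where ASNS, PHGDH and SHMT2 lay, 7.54% were (95% Wilson interval 5.93 to 9.55%). Of the 484 names at 200 to under 500, where CBS lay, it was 14.7% (11.8 to 18.1%), and of the 159 names at 500 or more, where MTHFD2 lay, 39.0% (31.8 to 46.7%). MTHFD2 was thus listed at 0 in the band where the largest share of names was seen. At its share of the glutamine-deficient library, MTHFD2 would have had 19.7 reads among the 42827 of the glucose-deficient library. SHMT2 would have had 6.29. The same projection gave 4.28 reads for ASNS, 6.44 for PHGDH and 12.5 for CBS. These 3 had 149, 101 and 142 reads in the glucose-deficient library, far above the projection. Most names seen in both libraries shared this excess. After rescaling, 86.9% of those 351 names were 2-fold or more higher in the glucose-deficient library. The excess is therefore not read as particular to these enzymes. Equal shares thus held for none of the 5 enzymes, and the projection gives no level against which the listed 0s can be read. Rows above 0 had a median deposited value of 13.4 in the glutamine-deficient and 88.5 in the glucose-deficient library. From 100 upward, 195 of 1465 names, or 13.3%, were above 0 in the glucose-deficient library, beside 3 of the 5 enzymes. The number of rows also went with it, at 5.98% of names with 3 rows and 8.18% of names with 4.

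**Figure D5:**
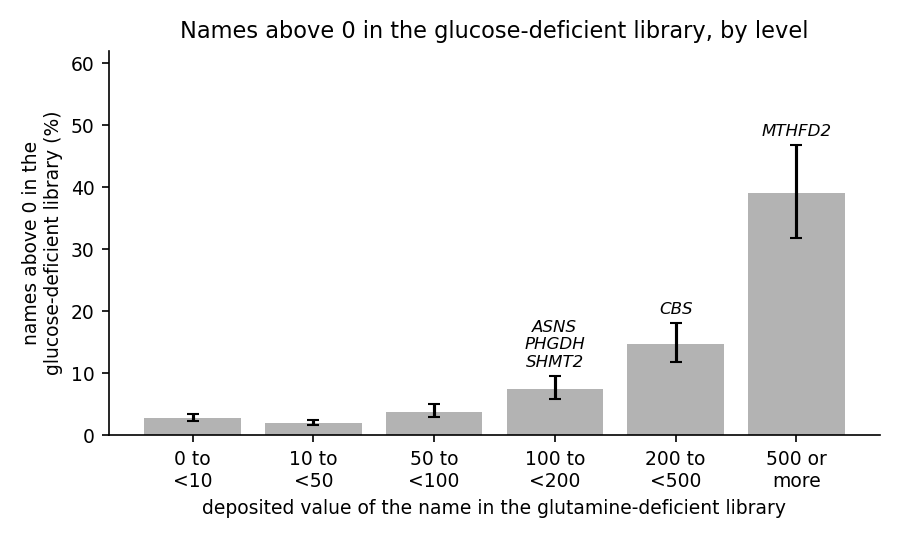
Percent of names above 0 in the glucose-deficient library (vertical axis) by band of deposited value in the glutamine-deficient library (horizontal axis), with 95% Wilson intervals, and the enzymes written above their band. The percent is 7.54% in the band of ASNS, PHGDH and SHMT2, 14.7% in that of CBS and 39.0% in that of MTHFD2.

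The surrounding pathway was read from 6 lists with 119 different genes. Apart from the 5 enzymes, 51 of the other 114 genes had a value. All 51 were above 0 in the glutamine-deficient library, and 1 of 51 was above 0 in the glucose-deficient library, where 4.25% of all names were. That 1 was SFXN1, a mitochondrial serine carrier, at 16.6 in the glutamine-deficient and 2.55 in the glucose-deficient library, from 21 reads in the glutamine-deficient and 2 in the glucose-deficient library. Of the 10 of these genes at 100 or more in the glutamine-deficient library, 0 were above 0 in the other, where 13.3% of all names at that level were. All 5 enzymes lay at that level, and 3 of them were above 0 in the glucose-deficient library. The difference between 3 of 5 and 0 of 10 was not tested. The enzymes and lists were chosen with earlier results of these data known. Log2 differences of the lists appear only among the recalculated values at the end. For 50 of the 51 genes, listed at 0 in the glucose-deficient library, they restate the level in the other.

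In serine synthesis and glycine cleavage 6 of 14 genes had a value, and PHGDH was the 1 above 0 in the glucose-deficient library. PSPH, the last enzyme of serine synthesis, had no value, and PSAT1, the step between, is not analysed here. SHMT1, the cytosolic counterpart of SHMT2, stood at 21.3 in the glutamine-deficient library and was listed at 0 in the other. The genes with a value ranged over deposited values of 12.6 to 172 in the glutamine-deficient library.

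In the folate pathway 10 of 25 genes had a value, and SFXN1 was the 1 above 0 in the glucose-deficient library. MTR, methionine synthase, stood at 84.6 in the glutamine-deficient library and was listed at 0 in the other. MTHFD1, the cytosolic trifunctional enzyme, stood at 52.1 and MTHFD2L, a mitochondrial relative of MTHFD2, at 22.9 in the glutamine-deficient library, both listed at 0 in the other. The genes with a value ranged from 7.10 to 526 in the glutamine-deficient library.

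In the methionine cycle and transsulfuration 14 of 27 genes had a value, and CBS was the 1 above 0 in the glucose-deficient library. MAT2A, which makes S-adenosylmethionine, stood at 306 in the glutamine-deficient library, and GSS, glutathione synthetase, at 242, with a listed 0 for each in the other. CTH, the step after CBS, is not analysed here. The range of the list was 5.52 to 333 in the glutamine-deficient library.

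In asparagine, aspartate and proline synthesis 12 of 22 genes had a value, and ASNS was the 1 above 0 in the glucose-deficient library. GPT2, the mitochondrial alanine transaminase, stood at 191 in the glutamine-deficient library and SLC38A2, a glutamine transporter, at 161, with a listed 0 for each in the other. The range of the list was 7.89 to 191 in the glutamine-deficient library.

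Neither of the remaining lists had a gene above 0 in the glucose-deficient library. Of 16 purine and thymidylate genes, which use one-carbon units, 10 had a value, among them IMPDH2 at 106, ADSL at 101 and GART at 86.2 in the glutamine-deficient library. Of 18 amino acid response regulators, 6 had a value, among them DDIT4, an inhibitor of mTORC1, at 984, PPP1R15B at 86.2 and ATF3 at 57.7 in the glutamine-deficient library. ATF4 itself, DDIT3, TRIB3 and CHAC1 are not analysed here.

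By distance over the log2(value + 1) of both libraries, the names with a symbol nearest to ASNS were LMNA, KRT8 and CANX, at deposited values of 114, 143 and 149 in the glutamine-deficient and 163, 200 and 176 in the glucose-deficient library. LMNA encodes the nuclear lamins A and C, KRT8 a keratin and CANX a chaperone of the endoplasmic reticulum. Nearest to PHGDH were EPB41L4A-AS1, a long non-coding RNA, GNAS and STAG2, at 174, 174 and 154 in the glutamine-deficient and 131, 119 and 123 in the glucose-deficient library. Nearest to CBS were HDAC7, HNRNPH1 and MYBBP1A, at 353, 346 and 317 in the glutamine-deficient and 163, 159 and 158 in the glucose-deficient library. SHMT2 had RNF126, ATP6V0D1 and PPP1R12C at the same 168 and a listed 0, and MTHFD2 had ANKLE2 at 526, P4HB at 520.2 and SNRNP70 at 533, all listed at 0 in the glucose-deficient library. The measure spans 2 libraries only, so it ranks likeness in level and nothing further.

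Pseudogenes and overlapping genes leave some of these names uncertain. RefSeq lists 5 pseudogenes of ASNS and 7 of MTHFD2, of which ASNSP1 is named in the files and has no value. Genes overlapping ASNS, SHMT2 and MTHFD2 in RefSeq had no value under their own names, and how the counting treated reads of such copies or of overlapping genes is not given in the sources used here.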

How the data were processed

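RNA of 1 glutamine-deficient and 1 glucose-deficient 95D sample was analysed. Per the labels' protocols, total RNA was depleted of ribosomal RNA and sequenced in pairs. The submitters' processing notes name HISAT2 2.0.5, StringTie and build hg38 without their roles. No source used here gives the counting tool, annotation or normalization. Each deposited file holds 1 score per transcript row, with no unit stated per the file headers. The header of the glucose-deficient file abbreviates the condition as Glu, and the description of the glutamine-deficient sample names the same column of the whole-series table as that of the glucose-deficient sample. Groups were taken from each sample's title and treatment label and its own file. The table of the whole series was not used.

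Values under 1e-09 were set to 0, and rows without a number were left out. Neighbouring low values were 0.791 apart in the glutamine-deficient and 1.26 apart in the glucose-deficient library, with fitted offsets of -0.018 and 0.022. With the offset removed, 100% of values up to 1000 reads, 18536 and 472 in number, were whole multiples of the step within 0.1 of a read. The product of the steps was 1.00; how the factors were chosen is not stated. Rows of a name were summed, and differences are log2(value + 1), which understates those of low names. No test was run, with 1 library per condition.

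Named genes were the 5 enzymes, their close relatives, list genes above 0 in the glucose-deficient library, the 3 highest list genes in the glutamine-deficient library, and the 3 nearest names of each enzyme. A name within this rule is not reported here. A few list genes without a value are named beside them, chosen after that was seen. The enzymes and lists were chosen with earlier results of these data known. Symbols were matched to RefSeq (GRCh38.p14), where 6861 names and all 5 enzymes matched; promoter sequences are from the same source. Alternatives covered the pseudocount, scaling, thresholds, minimum, row choice and most abundant name. Calculations used Python 3.11.15 with numpy 2.4.6, pandas 2.3.3 and scipy 1.17.1 and were tested on simulated data.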

Additional observations from a re-analysis of the deposited data

How the results depend on the processing

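With 1 library per condition, no leave-one-out or paired fit exists. No paired analysis was possible because the labels give 1 sample per condition. Of 74 recalculated values 35 stayed within their interval or within 1.5-fold, 29 moved and 10 changed sign. With rescaling the log2 difference of ASNS was -5.11, while that of PHGDH turned to -3.96 and that of CBS to -3.50. With centring on the median of all names the values were -5.04 for ASNS, -3.90 for PHGDH, -3.43 for CBS, 3.08 for SHMT2 and 4.72 for MTHFD2, the last pair against a listed 0. With the largest row alone they were -2.09 for ASNS, -0.21 for PHGDH and -0.30 for CBS, where the row that leads differs between the libraries for PHGDH and CBS but not for ASNS. Shares among the 3 enzymes seen in both libraries, chosen after seeing the data, differed (glutamine-deficient minus glucose-deficient) by -19.6 percentage points for ASNS, 1.98 for PHGDH and 17.6 for CBS, against -29.3, -12.7 and -10.8 among all 5. With a pseudocount of 0.1 SHMT2 came to 10.71 and MTHFD2 to 12.36, against 7.40 and 9.04 with 1, so the size of both is set by the pseudocount. The 3 enzymes above 0 in the glucose-deficient library were also 3 with a value of at least 5. The background at a value of at least 5 was 3.90% of all names. Above 0 it was 4.25% of all names and 4.97% of names with a symbol.

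Names at least 2-fold higher in the glutamine-deficient library were 2911 with centring and 148 among names at 1 or more in both libraries, against 9008. Those higher in the glucose-deficient library were 131 as deposited, 347 with rescaling, 2696 with centring, 85 at a 4-fold threshold and 85 at 1 or more in both libraries. Without the most abundant name, the enzymes held 0.188% of reads in the glutamine-deficient and 1.05% in the glucose-deficient library.

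List medians of the log2 difference rest on listed 0s in nearly every gene and so follow the level in the glutamine-deficient library. With the pseudocount of 1 they were 4.28 for serine synthesis, 5.16 for folate and 5.14 for methionine and transsulfuration. They were 5.63 for asparagine, aspartate and proline, 5.92 for purines and 4.78 for the amino acid response regulators. With a pseudocount of 0.1 they were 7.54 for serine synthesis, 8.44 for folate, 8.43 for methionine and transsulfuration, 8.92 for asparagine, aspartate and proline and 9.22 for purines. With centring they were -0.037, 0.84, 0.82, 1.31 and 1.60 in the same order, and 0.46 for the amino acid response regulators. Among list names above 0 in both libraries, which left 1 name in each of 4 lists and none in the purine and regulator lists, they were 0.42 for serine synthesis, 2.31 for folate, 0.89 for methionine and transsulfuration and -0.72 for asparagine, aspartate and proline. The 5 enzymes rest on 1659 reads in the glutamine-deficient and 392 in the glucose-deficient library. How far depth accounts for the listed 0s was not tested.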
